A study of Mus musculus with 15 samples.

Results

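The interferon-stimulated antiviral genes are a list of 34 mouse genes that type I interferons induce and whose products sense viral RNA, block virus entry, translation or release, or carry the interferon signal itself. They were listed by name, without the interferon-inducible GTPases, and each was measured by the array probe whose systematic name is a RefSeq transcript of the gene. Of the 34 genes, 32 had such a probe among 23462 gene names on the array, and all 32 were tested. *Mx1* and *Mx2* matched no probe by this rule and are not analysed here. All samples were Mouse Embryonic Fibroblasts (MEFs) of the line Balb/c/3T3 clone A31, an established fibroblast line grown from 1 clone, and share that origin with their controls. Cells were left untreated (controls) or incubated with TNFα (10 ng/ml), IL1β (1 ng/ml), IL6/sIL6Rα (20 ng/ml of IL-6 with 25 ng/ml of its soluble receptor) or TGFβ1 (5 ng/ml), written below as TNFα, IL-1β, IL-6 and TGFß1. Each of the 5 groups holds 3 one-color arrays of total RNA. The labels give 24 or 72 h for the cultures. The study's text sets 24 h for the TNFα, TGFß1 and control arrays, and the time of the IL-1β and IL-6 arrays is not given in the sources used here.

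Virus-derived nucleic acid in the cytosol is sensed by receptors such as RIG-I, which switch on interferon-β. The secreted interferon binds its receptor on the same and neighbouring cells, and the kinases JAK1 and TYK2 then activate a complex containing STAT2 and IRF9 that binds the interferon-stimulated response element (ISRE) in the promoters of antiviral genes. TNFα, IL-1β, IL-6 and TGFß1 do not use this receptor: TNFα and IL-1β act mainly through NF-κB, IL-6 mainly through STAT3 and TGFß1 mainly through SMAD proteins.

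The promoters of the 4 genes with the largest called rises in any comparison with control are shown. The ISRE is marked because it is the element by which the list is known. The 4 genes were picked by the size of the rise, so their shared rise is set by the choice. Sequences are from RefSeq on GRCm38.p6, and each is the stretch of 250 bases that ends just before the gene start, written 5′ to 3′ on the strand of the gene. Capitals mark the ISRE core, GAAANNGAAA on either strand, so that a match on the other strand reads TTTCNNTTTC.
*Rsad2*, chr12:26456453-26456702, minus strand: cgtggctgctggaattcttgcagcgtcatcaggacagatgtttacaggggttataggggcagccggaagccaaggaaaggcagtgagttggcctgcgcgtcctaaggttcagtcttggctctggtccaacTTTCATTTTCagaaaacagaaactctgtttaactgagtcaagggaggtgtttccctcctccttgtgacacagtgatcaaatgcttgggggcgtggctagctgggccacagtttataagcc
*Ifit3*, chr19:34583279-34583528, plus strand: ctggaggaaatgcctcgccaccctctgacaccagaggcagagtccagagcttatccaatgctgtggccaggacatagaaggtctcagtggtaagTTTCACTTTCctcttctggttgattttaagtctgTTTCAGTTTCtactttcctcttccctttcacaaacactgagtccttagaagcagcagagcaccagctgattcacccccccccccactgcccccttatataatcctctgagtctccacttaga
*Ifit1*, chr19:34640639-34640888, plus strand: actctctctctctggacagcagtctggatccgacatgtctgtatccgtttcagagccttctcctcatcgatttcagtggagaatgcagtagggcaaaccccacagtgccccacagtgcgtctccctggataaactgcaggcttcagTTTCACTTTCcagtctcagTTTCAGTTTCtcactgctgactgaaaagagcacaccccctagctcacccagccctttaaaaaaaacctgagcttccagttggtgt
*Cmpk2*, chr12:26468965-26469214, plus strand: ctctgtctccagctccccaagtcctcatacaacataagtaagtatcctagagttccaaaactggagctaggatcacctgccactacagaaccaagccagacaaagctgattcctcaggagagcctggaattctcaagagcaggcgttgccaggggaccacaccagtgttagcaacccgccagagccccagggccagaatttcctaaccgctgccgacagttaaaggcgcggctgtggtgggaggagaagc
*Ifit3* and *Ifit1* held 2 matches each and *Rsad2* 1, and all of these read on the other strand. No such letters lay in the window of *Cmpk2*, a neighbour of *Rsad2* on the opposite strand, and the windows of these genes do not overlap. Of the 34 genes, 25 had an entry in the promoter table, and 8 of these 25 (32%) held an ISRE core in the 250 bases, against 3.46% of the 27025 genes of the table. The 8 genes were *Bst2*, *Ifit1*, *Ifit3*, *Isg15*, *Oas1a*, *Oas3*, *Rsad2* and *Stat2*. Among members with an entry, 6 of the 18 called higher with TNFα (33.3%) and 2 of the 7 not called (28.6%) held the core, and so did 4 of the 14 called lower with TGFß1 (28.6%). A κB consensus on either strand lay in 6 of the 25 (24%), against 8.23% of all genes. It lay in 4 of the 18 called higher with TNFα (22.2%) and 2 of the 7 not called (28.6%). Among those called lower with TGFß1 it lay in 4 of the 14 (28.6%). *Bst2* and *Oas3* held both motifs, and in neither gene did a κB match overlap an ISRE core. *Oas2*, *Usp18*, *Dhx58*, *Zbp1*, *Parp9*, *Parp14*, *Rtp4*, *Mx1* and *Mx2* had no entry.

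Between 48.3% and 54.9% of the probes of an array were well above background. Known response genes of these pathways moved in these arrays as log2 differences from control of 2.55 with TNFα and 1.99 with IL-1β for the chemokine *Ccl2* and 2.39 with IL-6 for *Socs3*, a target of STAT3, and these 3 differences passed the test. All 7 fibroblast markers examined were well above background on all 15 arrays, but their levels moved with the treatments. With TNFα, *Col1a1*, *Col1a2*, *Col3a1* and *Thy1* fell and *Dcn* rose, and with TGFß1 *Dcn* and *Pdgfra* fell (log2 differences from -2.17 to 1.91). Of the epithelial markers, *Krt8* alone was tested, and only through the TGFß1 arrays, where it is high. It lay at -6.04, -6.47 and -5.10 in controls, where no array was well above background. With TGFß1 it lay at -3.33, -4.09 and -3.68, where all were. Its call as higher with TGFß1 is not independent of the filter. *Pecam1*, the only endothelial marker tested, passed in no comparison with control. The part of these markers in the antiviral gene differences was not tested. The pan-leukocyte marker *Ptprc* and the macrophage marker *Adgre1* were well above background on no array. Of 7 leukocyte markers, the probes of 4 (*Cd68*, *Csf1r*, *Itgam* and *Cd3e*) were above background on all arrays, and none of these 4 passed the test in any comparison with control. The mean level of the leukocyte markers ranged from -3.08 to -2.88 over the control arrays, from -3.36 to -2.42 over the TNFα arrays and from -3.20 to -2.71 over the TGFß1 arrays. The control arrays were not alike in the antiviral genes. Control 11 was the highest control array for 26 of the 32 genes and control 1 the lowest for 22. Relative to the control mean, the median of the 32 genes was -0.42 on control 1, -0.07 on control 6 and 0.50 on control 11. Control 11 also had the lowest 75th percentile of signal before scaling (508, against up to 683) and the lowest share of probes above background, 48.3%, and the part of these values in its antiviral gene levels was not tested. TNFα 9 was the highest TNFα array for 26 genes, and IL-6 array 8 the highest IL-6 array for 29.

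Levels are given below as relative log2 signal, the log2 brightness of a probe minus the 75th percentile of its array. Levels of different probes are not comparable, so a gene is compared only with itself. Values of a group are listed in the order control 1, 6 and 11, TNFα 4, 9 and 14, IL-1β 5, 10 and 15, IL-6 3, 8 and 13, and TGFß1 2, 7 and 12. A gene is said to rise or fall where the q-value (limma, adjusted by Benjamini-Hochberg over 29334 probes) was below 0.05 and the fold-change at least 1.5. Every comparison with control uses the same 3 control arrays. The RNA is from whole cultures, so fewer cells that express a gene and less RNA per cell cannot be told apart.

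TNFα raised most of the list, and many of its genes fell with TGFß1. With TNFα, 22 of the 32 genes rose and 0 fell, while 4.12% of all probes tested rose and 6.06% fell. The log2 differences from control ranged from 0.05 to 4.39 with a median of 1.39, where all probes had a median of 0.04, and all 32 were above 0. For *Stat2*, at 0.05, the sign turned under some settings (-0.17 without control 1, -0.18 without TNFα 9 and -0.04 with the 50th percentile as the scaling point). With TGFß1, 18 of the 32 fell and 0 rose, against 10.8% of all probes that fell and 7.17% that rose. Here the median log2 difference was -0.94 (range -2.66 to 0.04) beside 0.05 for all probes. With IL-1β and with IL-6, 0 of the 32 passed the test in either direction, and 0.252% and 0.0648% of all probes did. Over the 4 treatments, 12 genes rose with TNFα and did not pass with TGFß1, 10 rose with TNFα and fell with TGFß1, 8 fell with TGFß1 and did not pass with TNFα, and *Eif2ak2* and *Parp9* passed in no comparison with control.

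**Figure D1:**
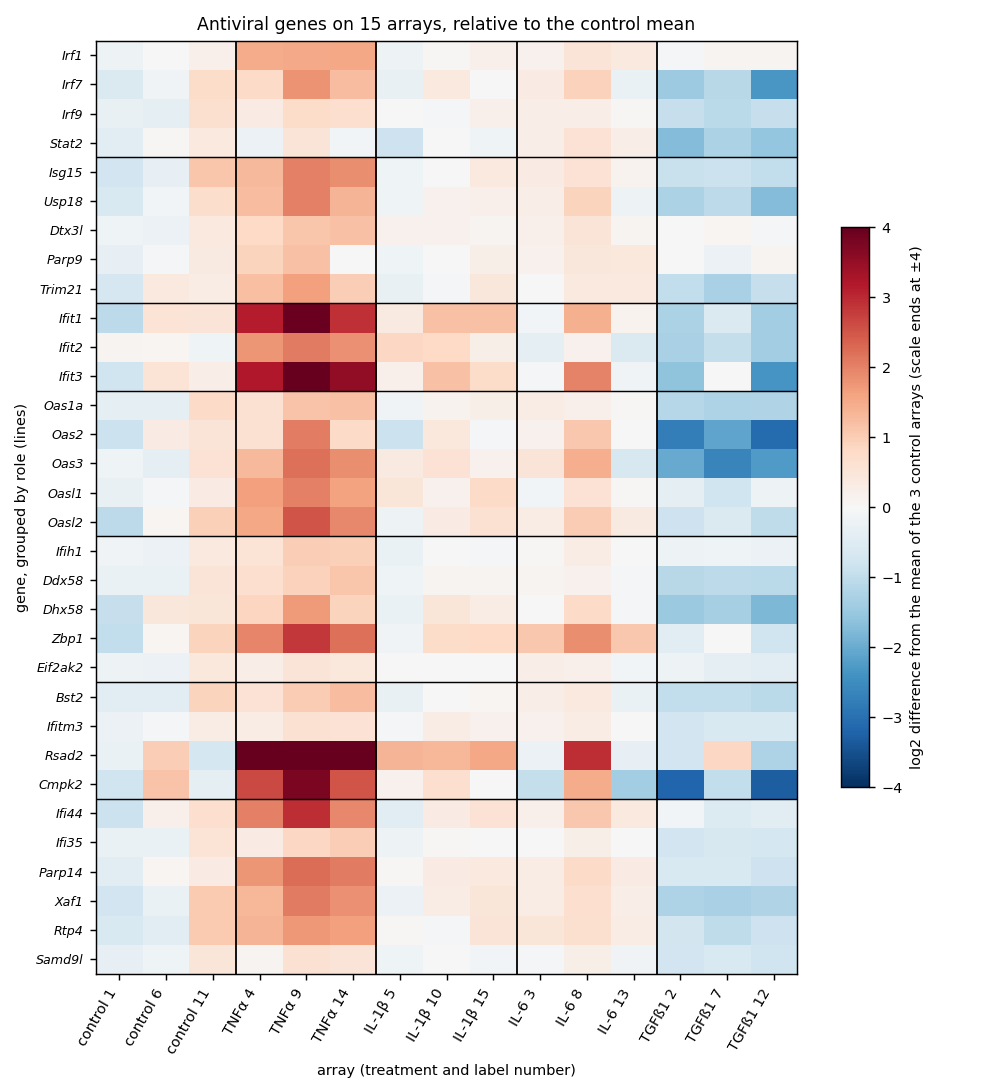
Each row is 1 of the 32 antiviral genes, grouped by role, and each column 1 of the 15 arrays; color is the log2 difference from the mean of the 3 control arrays, and the color scale ends at 4 in both directions. The TNFα columns are red for nearly all genes, the TGFß1 columns blue for most, and among the controls, control 11 is redder and control 1 bluer than control 6.

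**Figure D2:**
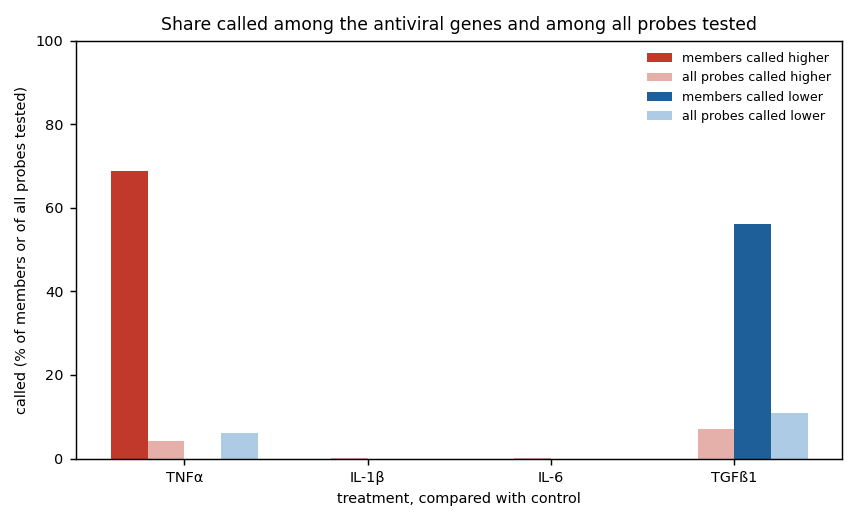
Bars give the percentage called higher (red) and lower (blue) among the 32 antiviral genes (dark) and among all 29334 probes tested (pale) for each treatment against control. The dark bars reach 22 of 32 for rises with TNFα and 18 of 32 for falls with TGFß1, beside 4.12% and 10.8% of all probes.

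The transcription factors of the list did not move as 1 group. *Irf1* (NM_008390), an interferon regulatory factor that is also a known target of NF-κB, lay at 3.51, 3.71 and 3.91 on the control arrays and at 5.18, 5.22 and 5.25 on the TNFα arrays. It lay at 3.50, 3.77 and 3.93 with IL-1β, at 3.87, 4.23 and 4.09 with IL-6 and at 3.62, 3.81 and 3.82 with TGFß1. All 3 TNFα arrays stood above the other 12, and these 12 overlapped. *Irf1* rose 2.84-fold with TNFα (log2 fold-change 1.51 ± 0.14, SE; q = 3.19e-05), and its log2 difference with TGFß1 was 0.04 ± 0.14 (q = 0.865).

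*Irf7*, which drives the amplification of interferon production, lay at 3.13, 3.59 and 4.45 in controls and 4.50, 5.52 and 4.97 with TNFα, at 3.42, 4.12 and 3.71 with IL-1β, 4.04, 4.66 and 3.47 with IL-6 and 2.29, 2.61 and 1.38 with TGFß1. The TNFα values lay just above the highest control, while the TGFß1 values lay below all controls. It fell with TGFß1 (-1.63 ± 0.42, q = 0.0142), and its difference of 1.27 ± 0.42 with TNFα did not pass (q = 0.0692), although it did with the slide as a block in the model. *Irf9* and *Stat2* encode parts of the complex that binds the ISRE. For *Irf9* the values were 2.06, 1.99 and 2.99 in controls, 2.68, 3.07 and 3.02 with TNFα and 1.41, 1.28 and 1.43 with TGFß1. IL-1β gave 2.32, 2.29 and 2.55 and IL-6 2.60, 2.61 and 2.39. *Stat2* lay at 3.35, 3.86 and 4.18 in controls, 3.55, 4.31 and 3.68 with TNFα and 2.08, 2.53 and 2.24 with TGFß1, with 2.98, 3.79 and 3.63 on the IL-1β arrays and 4.07, 4.39 and 4.06 on the IL-6 arrays. For both genes the TGFß1 arrays were the lowest of all 15, and the TNFα arrays overlapped the controls. Both fell with TGFß1, with log2 differences of -0.97 and -1.51 (q = 0.00718 and 0.00167). With TNFα the log2 differences were 0.58 ± 0.22 and 0.05 ± 0.27 (q = 0.113 and 0.928), and the 95% interval for *Stat2* ran from -0.53 to 0.63.

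**Figure D3:**
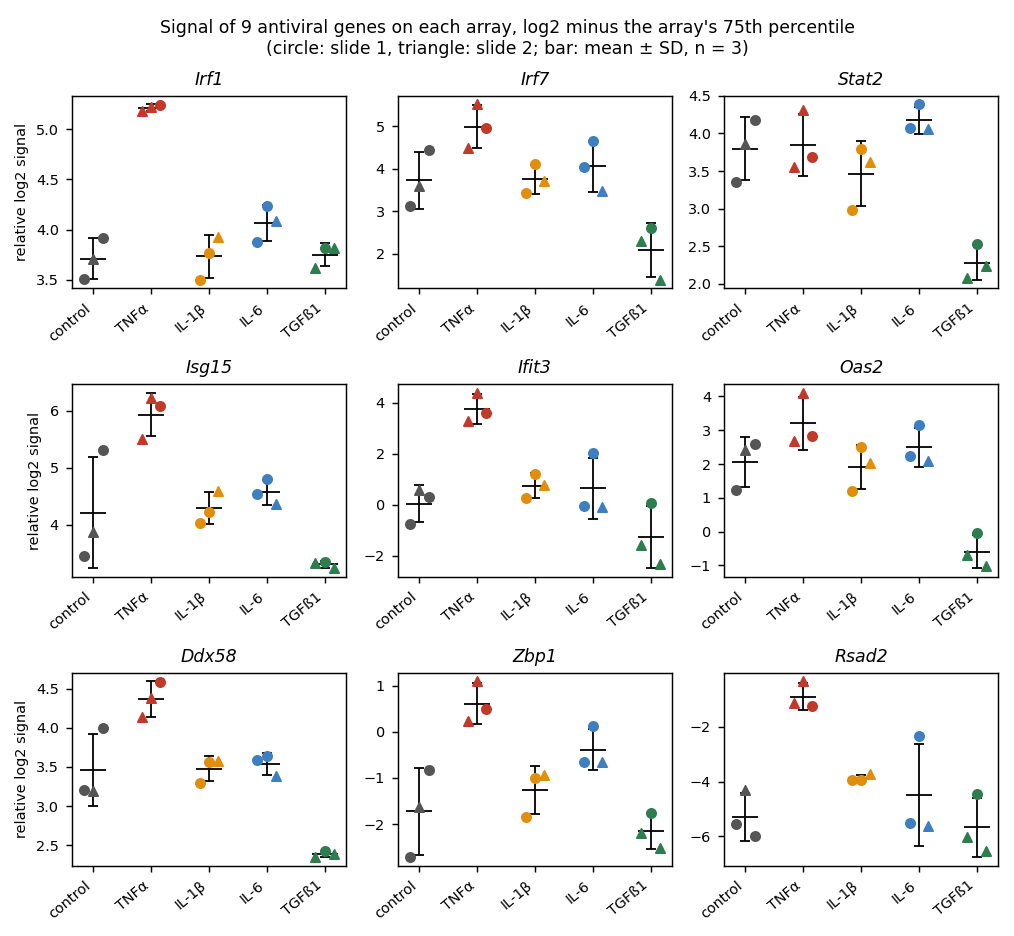
Points are the relative log2 signal (log2 brightness minus the array's 75th percentile) of 9 antiviral genes on each of the 15 arrays, circles on slide 1 and triangles on slide 2, with the mean and SD of the 3 arrays of a group. The TNFα points of Irf1, Isg15, Ifit3, Zbp1 and Rsad2 lie above all control points, while those of Stat2 lie among them, and the TGFß1 points of Irf7, Stat2, Oas2 and Ddx58 lie below all control points.

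The IFIT proteins bind viral RNA that lacks the cap marks of the host, and their genes had 2 of the 4 largest rises of the list with TNFα. *Ifit1* (NM_008331) lay at -1.23, 0.37 and 0.35 in controls and at 2.99, 3.78 and 2.76 with TNFα. It lay at 0.18, 1.00 and 0.99 with IL-1β, -0.28, 1.25 and -0.03 with IL-6 and -1.44, -0.74 and -1.55 with TGFß1. Every TNFα array stood above every other array, and the TGFß1 arrays reached into the control range. *Ifit3* (NM_010501) had -0.76, 0.59 and 0.32 in controls and 3.26, 4.38 and 3.60 with TNFα. The IL-1β arrays held 0.26, 1.21 and 0.79, the IL-6 arrays -0.04, 2.03 and -0.08 and the TGFß1 arrays -1.56, 0.06 and -2.31. IL-6 array 8 and TGFß1 array 7 were each far above the others of their group. *Ifit2* had -1.52, -1.56 and -1.82 in controls, 0.14, 0.45 and 0.20 with TNFα and -2.92, -2.58 and -3.01 with TGFß1, and -0.80, -0.84 and -1.40 with IL-1β and -2.00, -1.45 and -2.22 with IL-6. Its controls were close together, so that TNFα and IL-1β lay wholly above and TGFß1 wholly below them. With TNFα the fold-changes were 10.1 for *Ifit1*, 13 for *Ifit3* and 3.72 for *Ifit2* (log2 3.34 ± 0.50, 3.70 ± 0.66 and 1.90 ± 0.22; q = 0.000874, 0.00305 and 0.000121). With TGFß1, *Ifit2* fell by 1.20 on the log2 scale (q = 0.00175), and the differences of *Ifit1* and *Ifit3* were -1.08 ± 0.50 and -1.32 ± 0.66 (q = 0.135 and 0.171). With the slide and the run of label numbers (1 to 5, 6 to 10 and 11 to 15) as blocks, both of these passed as falls. Cross-hybridization of the *Ifit3* probe with the near-identical *Ifit3b* was not tested.

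*Rsad2* encodes viperin, which makes a nucleotide that stops viral RNA synthesis, and its neighbour *Cmpk2* encodes a mitochondrial nucleotide kinase. Outside the TNFα and IL-1β groups, not every array was well above background for *Rsad2*, and the same held for *Cmpk2* with IL-6 and TGFß1. *Rsad2* (NM_021384) lay at -5.55, -4.30 and -6.00 in controls, where 2 of 3 arrays were well above background, and at -1.11, -0.33 and -1.25 with TNFα. IL-1β gave -3.92, -3.95 and -3.74, IL-6 gave -5.52, -2.32 and -5.62 and TGFß1 gave -6.03, -4.46 and -6.52. The TNFα arrays were the 3 highest of all and the IL-1β arrays, which differed little among themselves, also lay above the controls. By the probe used, the rise with TNFα was the largest of the list, 20.9-fold (log2 4.39 ± 0.79, q = 0.00316), while the IL-1β difference of 1.41 ± 0.79 did not pass (q = 1). A dimmer second probe of *Rsad2* was well above background on no control or IL-1β array. By that probe *Rsad2* was at least 2.46-fold higher with TNFα. The probe was tested only because it was detected on the TNFα arrays, so it is no independent test of the rise. The IL-1β difference by this probe was -0.12, and the IL-1β and control arrays overlapped. *Cmpk2* had -4.98, -3.05 and -4.55 in controls, -1.57, -0.44 and -1.68 with TNFα and -7.37, -5.19 and -7.49 with TGFß1. Its IL-1β values were -4.02, -3.51 and -4.21 and its IL-6 values -5.14, -2.70 and -5.59. The TNFα arrays were above and the TGFß1 arrays below all controls. *Cmpk2* rose 7.81-fold with TNFα (log2 2.97 ± 0.79, q = 0.0271). On no TGFß1 array was it well above background, so its fall is a bound, at least 2.18-fold lower (q = 0.0368). Both calls of *Cmpk2* were lost under some of the other settings, such as leaving out control 11. *Bst2*, or tetherin, which holds budding virions on the cell surface, and *Ifitm3*, which blocks the fusion of virus with endosomes, fell with TGFß1 and did not pass with TNFα. *Bst2* lay at 3.37, 3.35 and 4.70 in controls, 4.39, 4.82 and 5.03 with TNFα and 2.83, 2.83 and 2.72 with TGFß1, and at 3.50, 3.83 and 3.90 with IL-1β and 4.06, 4.21 and 3.54 with IL-6. *Ifitm3* lay at 6.26, 6.40 and 6.77 in controls, 6.77, 7.07 and 7.06 with TNFα and 5.71, 5.88 and 5.86 with TGFß1, and at 6.40, 6.78 and 6.64 with IL-1β and 6.66, 6.78 and 6.49 with IL-6. For both, the TNFα and control values overlapped and the TGFß1 arrays were the lowest. Their log2 differences were 0.94 and 0.49 with TNFα (q = 0.0728 and 0.0555) and -1.01 and -0.66 with TGFß1 (q = 0.0345 and 0.00806).

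The active enzymes of the OAS family make oligoadenylates that activate the ribonuclease RNase L, and the listed members of the family split between the treatments. *Oas2* had the largest measured fall of the list with TGFß1. It lay at 1.22, 2.40 and 2.59 in controls, 2.68, 4.11 and 2.83 with TNFα and -0.70, -0.05 and -1.01 with TGFß1, and at 1.21, 2.50 and 2.04 with IL-1β and 2.24, 3.15 and 2.08 with IL-6. All TGFß1 values were below 0 while all others were above 1, a log2 difference of -2.66 ± 0.49 or 6.32-fold (q = 0.0021). Its difference with TNFα was 1.14 ± 0.49 (q = 0.159; 0.0183 with the slide and the run of label numbers as blocks). *Oas3* lay at -4.92, -5.16 and -4.19 in controls, -3.46, -2.54 and -2.88 with TNFα, -4.41, -4.18 and -4.60 with IL-1β, -4.24, -3.29 and -5.40 with IL-6 and -6.77, -7.41 and -7.03 with TGFß1. It was dim throughout and on no TGFß1 array well above background. *Oas3* rose 3.47-fold with TNFα (q = 0.0177) and was at least 1.53-fold lower with TGFß1 (q = 0.00252). With the normexp background correction, which adds an offset to dim spots, the TGFß1 calls of *Oas3* and *Cmpk2* were lost (log2 -0.22 and -0.43). *Oas1a* had 3.70, 3.70 and 4.86 in controls, 4.71, 5.23 and 5.24 with TNFα, 3.96, 4.22 and 4.31 with IL-1β, 4.37, 4.29 and 4.12 with IL-6 and 2.95, 2.86 and 2.88 with TGFß1. Control 11 reached into the TNFα range, and TGFß1 lay below all others. The log2 differences of *Oas1a* with TNFα and TGFß1 were 0.97 and -1.19 (q = 0.0295 and 0.00645), and cross-hybridization within the *Oas1* cluster was not tested. The OAS-like genes rose with TNFα and did not pass with TGFß1. *Oasl1* lay at -0.22, 0.03 and 0.38 in controls, 1.71, 2.09 and 1.67 with TNFα and -0.30, -0.74 and -0.14 with TGFß1, and at 0.56, 0.23 and 0.83 with IL-1β and -0.05, 0.64 and 0.12 with IL-6. *Oasl2* lay at 0.14, 1.28 and 2.16, 2.75, 3.71 and 3.11 and 0.37, 0.60 and 0.17 in the same 3 groups, and at 0.99, 1.53 and 1.82 with IL-1β and 1.49, 2.22 and 1.56 with IL-6. The TNFα arrays of both genes were above all other arrays. The rises were 1.76 ± 0.24 and 2.00 ± 0.43 (q = 0.000424 and 0.0089), beside -0.46 and -0.81 with TGFß1 (q = 0.179 and 0.191).

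Of the 5 sensors of nucleic acids, 3 rose with TNFα and 2 fell with TGFß1. *Zbp1*, a receptor of Z-form nucleic acid that can trigger necroptosis, lay at -2.71, -1.63 and -0.83 in controls and 0.23, 1.09 and 0.50 with TNFα. IL-1β gave -1.85, -0.99 and -0.93, IL-6 gave -0.65, 0.13 and -0.65 and TGFß1 gave -2.18, -1.75 and -2.53. The IL-6 arrays, like the TNFα arrays, lay above all controls, but their lowest values were close to control 11. *Zbp1* rose 5.01-fold with TNFα (log2 2.33 ± 0.44, q = 0.00414), and its difference of 1.34 ± 0.44 with IL-6 did not pass (q = 0.869). *Ddx58* encodes RIG-I. Its values were 3.20, 3.19 and 3.99 in controls, 4.13, 4.38 and 4.58 with TNFα and 2.35, 2.43 and 2.39 with TGFß1, and 3.30, 3.56 and 3.57 with IL-1β and 3.58, 3.64 and 3.39 with IL-6. The TGFß1 arrays were close together and lay below all others. *Ddx58* rose by 0.90 with TNFα (q = 0.0095) and fell by 1.07 with TGFß1 (q = 0.00204). *Ifih1*, a related receptor of long viral RNA, lay at -0.03, -0.12 and 0.52 in controls, 0.66, 1.11 and 1.06 with TNFα and -0.08, -0.04 and -0.12 with TGFß1, and at -0.13, 0.10 and 0.05 with IL-1β and 0.17, 0.42 and 0.10 with IL-6. *Dhx58*, which regulates both receptors, had -2.09, -0.73 and -0.70, -0.30, 0.52 and -0.27 and -2.65, -2.51 and -2.96 in the same 3 groups, and -1.43, -0.70 and -0.87 with IL-1β and -1.17, -0.42 and -1.21 with IL-6. *Ifih1* was highest on the TNFα arrays and elsewhere overlapped, while *Dhx58* was lowest on the TGFß1 arrays. *Ifih1* rose with TNFα (log2 0.82 ± 0.17, q = 0.00825) and had -0.21 with TGFß1 (q = 0.422). *Dhx58* fell by 1.54 with TGFß1 (q = 0.0105) and had 1.15 with TNFα (q = 0.0626). *Eif2ak2*, the kinase PKR that halts translation, had 0.40 with TNFα and -0.34 with TGFß1 (q = 0.14 and 0.16), with 95% intervals of 0.04 to 0.76 and -0.70 to 0.02.

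*Isg15* encodes a ubiquitin-like protein that is attached to other proteins, and *Usp18* the protease that removes it and damps the interferon receptor. *Isg15* (NM_015783) lay at 3.45, 3.88 and 5.31 in controls, 5.50, 6.21 and 6.08 with TNFα and 3.33, 3.34 and 3.23 with TGFß1, and at 4.03, 4.23 and 4.59 with IL-1β and 4.54, 4.79 and 4.36 with IL-6. Control 11 was over 1 unit above the other controls and just below the lowest TNFα array. *Isg15* rose 3.29-fold with TNFα (log2 1.72 ± 0.37, q = 0.00941), and with TGFß1 all arrays were below all controls but the difference of -0.91 ± 0.37 did not pass (q = 0.0949). *Usp18* had 0.61, 1.11 and 1.91 in controls, 2.44, 3.22 and 2.57 with TNFα and -0.05, 0.16 and -0.52 with TGFß1, and 1.03, 1.39 and 1.41 with IL-1β and 1.49, 2.09 and 1.01 with IL-6. *Trim21*, a ubiquitin ligase and cytosolic antibody receptor, had -2.01, -0.96 and -1.04, -0.12, 0.30 and -0.36 and -2.31, -2.64 and -2.26 in the same 3 groups, and -1.63, -1.37 and -0.90 with IL-1β and -1.36, -0.93 and -0.93 with IL-6. In both genes the TNFα arrays were above and the TGFß1 arrays below all controls. They rose with TNFα by 1.54 and 1.28 (q = 0.0119 and 0.0109) and fell with TGFß1, with log2 differences of -1.35 and -1.07 (q = 0.0141 and 0.0161). *Dtx3l*, a ubiquitin ligase that works with *Parp9*, lay at 0.65, 0.62 and 1.24 in controls, 1.64, 1.96 and 2.00 with TNFα and 0.83, 0.93 and 0.75 with TGFß1, and at 1.02, 1.00 and 0.95 with IL-1β and 1.05, 1.35 and 0.95 with IL-6. It stood out with TNFα alone among these groups (1.03 ± 0.17, q = 0.00192), with a difference of 0.00 for TGFß1. *Parp9* had 0.29, 0.55 and 0.98 in controls and 1.49, 1.77 and 0.62 with TNFα, where TNFα 14 lay among the controls (0.68 ± 0.26, q = 0.112).

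**Figure D4:**
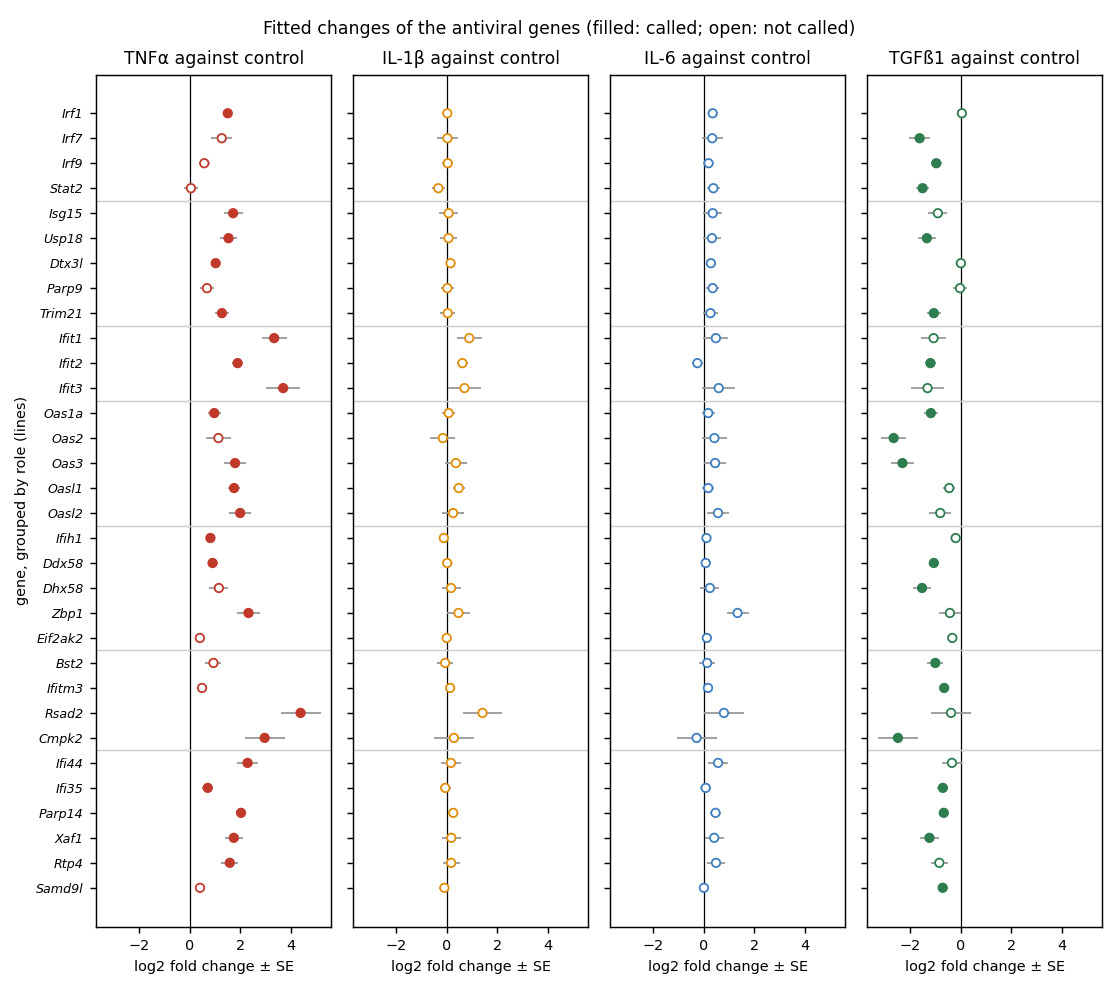
Points are the fitted log2 fold-changes of the 32 antiviral genes against control for the 4 treatments, with bars of 1 SE; filled points passed the test (q-value below 0.05 and fold-change of at least 1.5) and open points did not. The TNFα points lie to the right of 0 for all genes, up to 4.39 for Rsad2, the TGFß1 points lie mostly to the left, down to -2.66 for Oas2, and no IL-1β or IL-6 point is filled.

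The other 6 genes have diverse or less settled roles. *Parp14*, an ADP-ribosyltransferase, was among the most even of the list. It lay at 1.36, 1.85 and 2.12 in controls, 3.55, 4.02 and 3.85 with TNFα and 1.16, 1.17 and 0.96 with TGFß1, and at 1.83, 2.11 and 2.15 with IL-1β and 2.06, 2.55 and 2.10 with IL-6. The rise with TNFα was 4.09-fold (log2 2.03 ± 0.20, q = 4.78e-05), and the gene fell with TGFß1 (-0.68 ± 0.20, q = 0.0277). *Ifi44* had -1.80, -0.74 and -0.27 in controls, 1.07, 2.00 and 0.99 with TNFα and -1.04, -1.48 and -1.35 with TGFß1, and -1.36, -0.62 and -0.35 with IL-1β and -0.72, 0.14 and -0.54 with IL-6. *Rtp4*, a chaperone of membrane receptors, had 2.94, 3.12 and 4.61, 4.92, 5.29 and 5.21 and 2.83, 2.55 and 2.73 in the same 3 groups, and 3.62, 3.50 and 4.07 and 4.04, 4.21 and 3.87 with IL-1β and IL-6. Both were highest on the TNFα arrays and rose there by 2.29 and 1.59 (q = 0.00282 and 0.00889). Neither passed with TGFß1 (-0.35 and -0.85, q = 0.562 and 0.0875). *Xaf1*, which binds the apoptosis inhibitor XIAP, lay at 0.86, 1.37 and 2.68 in controls, 2.97, 3.70 and 3.47 with TNFα and 0.41, 0.33 and 0.43 with TGFß1, and at 1.41, 1.92 and 2.11 with IL-1β and 1.94, 2.29 and 1.91 with IL-6. *Ifi35* had 3.73, 3.75 and 4.54, 4.33, 4.83 and 5.00 and 3.23, 3.36 and 3.30 in the same 3 groups, and 3.80, 4.04 and 4.00 and 4.02, 4.24 and 3.98 with IL-1β and IL-6. In both, TGFß1 lay below all controls, and control 11 was the highest control by far. They rose with TNFα by 1.75 and 0.71 (q = 0.00818 and 0.0462) and fell with TGFß1, with log2 differences of -1.24 and -0.71 (q = 0.0266 and 0.0291). *Samd9l*, a repressor of translation, lay at 2.41, 2.58 and 3.23 in controls, 2.86, 3.34 and 3.24 with TNFα and 1.97, 2.15 and 1.94 with TGFß1, and at 2.57, 2.75 and 2.62 with IL-1β and 2.68, 2.97 and 2.59 with IL-6. It fell with TGFß1 (-0.72 ± 0.20, q = 0.0191), and the difference with TNFα was 0.41 ± 0.20 (q = 0.213).

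For the TNFα comparison, the 3 treated arrays lay above all 3 controls in 23 of the 32 genes, which held for 13.2% of all probes. In this count are *Irf7*, *Dhx58* and *Oas2*, which did not pass the test, while *Oas1a* and *Ifi35* rose with 1 control array inside the TNFα range. With the slide as a block, 24 genes rose, the added ones being *Irf7* and *Bst2*, and 5.68% of all probes did. The median log2 difference within slide 1 was 1.24 (TNFα 14 against controls 1 and 11) and within slide 2 1.46 (TNFα 4 and 9 against control 6). Each of these medians rests on 1 array on 1 side. Without control 11, 27 genes rose and the median was 1.62. In a fit of the 6 arrays of these groups alone, 12 rose. The share of all probes called in fits with fewer arrays is not given here, so these counts cannot be set against it. At an unadjusted p under 0.05, 30 of the 32 genes were higher, against 11.7% of all probes. With the slide and the run of label numbers as blocks, 27 genes rose, against 7.51% of all probes, the added ones being *Irf7*, *Irf9*, *Oas2*, *Dhx58* and *Bst2*. Of the 22 rises, 12 were lost under some setting. *Ifi35* and *Oas1a* were lost without control 1, control 6, TNFα 9 or TNFα 14, *Oas3* when any 1 of these 4 arrays was left out, and *Cmpk2* without control 1, control 11, TNFα 4 or TNFα 9. *Usp18* was lost without TNFα 9 and in the fit of 6 arrays. *Ddx58*, *Ifih1*, *Isg15*, *Oasl2*, *Rtp4*, *Trim21* and *Xaf1* were lost in the fit of 6 arrays, and *Ddx58* and *Ifih1* also with the 50th percentile as the scaling point.

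For the TGFß1 comparison, the treated arrays lay below all controls in 20 of the 32 genes, against 19.9% of all probes. *Isg15* and *Rtp4* are in this count but did not pass the test. With the slide as a block, 18 genes fell, against 10.9% of all probes. The medians within slides 1 and 2 were -0.80 and -0.79. Slide 1 held TGFß1 7 and controls 1 and 11, and slide 2 held TGFß1 2 and 12 and control 6. Each of these medians therefore rests on 1 array on 1 side. The count rested in part on control 11. Without it 8 genes fell and the median was -0.61, and 10 fell without TGFß1 12 or in a fit of the 6 arrays of these groups alone. The share of all probes called in these smaller fits is not given here. Whether the antiviral genes lost more calls than other probes was not tested. With the slide and the run of label numbers as blocks, 20 genes fell, against 12.4% of all probes, *Ifit1* and *Ifit3* being added (q = 0.0181 and 0.0237). *Stat2*, *Ifit2*, *Oas1a*, *Oas2*, *Ddx58* and *Dhx58* fell under every setting examined.

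The direct tests between treatments do not use the control arrays as a group. TNFα stood above TGFß1 in 31 of the 32 genes, all but *Parp9*, where 6.81% of all probes were called in that direction. The median log2 difference was 2.53, and the smallest was 0.72 (*Parp9*, q = 0.0897, past the threshold with the slide as a block). In the same 31 genes all TNFα arrays lay above all TGFß1 arrays, which held for 16.8% of all probes. *Ifit3* stood 32.4-fold and *Ifit1* 21.4-fold higher with TNFα (q = 0.000207 and 5.98e-05), *Cmpk2* at least 17.1-fold and *Oas3* at least 5.3-fold (q = 0.000443 and 4.06e-05). *Stat2*, which did not pass for TNFα against control, differed by 1.56 ± 0.27 here (q = 0.00151). TNFα stood above IL-1β in 18 of the 32 genes and above IL-6 in 16, beside 1.72% and 3.49% of all probes. TNFα and IL-1β, 2 cytokines that both act through NF-κB, were given at different doses. Among the genes called in both tests, *Irf1* differed by 1.48 and 1.15 on the log2 scale (q = 7.94e-05 and 0.000214), *Ifit2* by 1.28 and 2.15 (q = 0.0044 and 4.67e-05), and *Rsad2* by 2.97 and 3.59 (q = 0.0462 and 0.0112). The count against IL-1β was 7 without TNFα 9, 10 without TNFα 14, and 8 without IL-1β 5 or without IL-1β 10. Against IL-6 it was 7 without TNFα 9, 10 without TNFα 14, 9 without IL-6 array 3 and 7 without IL-6 array 13. No share of all probes is given here for these fits.

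With IL-1β, no antiviral gene passed the test in limma, and 1, *Ifit2*, had an unadjusted p under 0.05 (log2 0.62 ± 0.22, q = 0.856), as 3.71% of all probes did. The median log2 difference of the 32 genes was 0.10, 25 of them were above 0, and the median ran from -0.13 without control 1 to 0.40 without control 11, so that its direction was not fixed. With the slide and the run of label numbers as blocks, *Ifit2* alone of the 32 passed, as a rise, and 0.849% of all probes rose in that fit. The largest difference, 1.41 for *Rsad2*, had a 95% interval of -0.30 to 3.13, so a rise of several fold is within the error of these arrays. For *Irf1* the interval was narrower, -0.29 to 0.33. With IL-6, 3 genes had an unadjusted p under 0.05, as did 3.26% of all probes, and none passed the test. These were *Zbp1*, given above, *Irf1* (log2 0.35 ± 0.14) and *Parp14* (0.46 ± 0.20), both with a q-value of 1. The median was 0.33, with 30 of 32 genes above 0, and fell to 0.03 without control 1 and 0.09 without IL-6 array 8. That array was far above the other IL-6 arrays in *Ifit3*, *Rsad2* and *Cmpk2*.

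Interferon-signalling genes outside the list were counted in the same comparisons. Of 23 such genes, 21 had a probe and 18 were tested, with *Tmem173* and *Mb21d1* matching no probe and *Ifng*, *Ifnlr1* and *Irf8* too dim. With TNFα, 5 of the 18 rose and 0 fell, beside 4.12% and 6.06% of all probes. *Ifnb1*, the ligand interferon-β, lay at -8.06, -7.92 and -7.32 in controls, where no array was well above background, and at -4.80, -4.48 and -4.08 with TNFα, where all were. This is at least 1.98-fold higher. *Ifnb1* entered the test only through the TNFα arrays, where it is high, so its call among the 5 rises is not independent of the filter. IL-1β gave -7.89, -7.92 and -3.38, of which only the last was well above background, and no IL-6 or TGFß1 array was. *Ikbke*, a kinase that activates interferon regulatory factors, lay at -2.72, -2.72 and -2.49 in controls, -1.04, -0.85 and -0.80 with TNFα and -3.83, -3.42 and -4.03 with TGFß1. Its groups did not overlap, and it rose by 1.74 (q = 1.45e-05) and fell by 1.12 (q = 0.000246). *Ube2l6*, which conjugates ISG15, rose by 1.01 and fell by 0.86 (q = 0.0326 and 0.041). The other rises were *Socs1*, an inhibitor of JAK kinases (0.87, q = 0.013), and the receptor chain *Ifngr2* (0.83, q = 0.00183). With TGFß1, *Ikbke* and *Ube2l6* were the 2 of 18 that fell (11.1%), near the 10.8% of all probes, and 0 rose. The receptor chains *Ifnar1* and *Ifnar2* passed in no comparison with control (0.12 and 0.30 with TNFα, -0.09 and -0.05 with TGFß1) by the probe used. Of 7 further probes tested, from 6 of these genes, 3 rose with TNFα where the probe used did not pass, those of *Ifnar2*, *Trim25* and *Adar* (log2 0.65, 0.99 and 0.71, q = 0.00647, 0.0082 and 0.0474). That of *Ifnar2* also rose with IL-1β (0.77, q = 0.0361). With IL-1β and IL-6, 0 of the 18 passed by the probe used in limma. At an unadjusted p under 0.05 there were 3 with IL-1β (*Ifnar2*, *Ifngr2* and *Ikbke*) and 0 with IL-6. The medians of the 18 genes were 0.20 with TNFα and -0.28 with TGFß1, nearer to 0 than those of the antiviral genes.

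Of the 32 genes, 13 had more than 1 probe. Their 13 further probes that were tested, from 11 genes, differed from control in the same direction as the probe used for all 13 with TNFα and for 11 with TGFß1. The call was the same for 12 of 13 in each comparison, with *Xaf1* the exception for TNFα and *Parp14* for TGFß1. The dimmer probe of *Rsad2*, tested only through the TNFα arrays, is among the 13. The spread between replicate arrays was widest in the controls, with a median SD over the 32 genes of 0.62 (n = 3), against 0.36 with TNFα, 0.25 with IL-1β, 0.26 with IL-6 and 0.19 with TGFß1.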

How the data were processed

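Total RNA of each culture was labelled with Cyanine 3 and hybridized to whole-mouse oligonucleotide arrays, 1 culture per array, 8 arrays on slide 1 and 7 on slide 2. The authors extracted the spots with Agilent Feature Extraction 10.7.3.1 (per the labels) and deposited the processed signal, an intensity on a linear scale after background subtraction, with no normalization between arrays. The series table repeats these deposited intensity values (largest difference 0, column medians 14.8 to 24.1), and no column was left unmapped. Conditions were taken from the labels. The study's text speaks of 3 independent experiments, but the labels do not say which arrays belong to one, so p-values measure the spread between these arrays.

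Of 62976 spots, 59305 are not controls and stand for 56605 probes, of which 33767 were named through RefSeq (GRCm38.p6), and no probe positions are given. Spots marked non-uniform or as population outliers (0.13% to 0.261% per array) were left out. Spots of the same probe were averaged after log2, and the 75th percentile of the array (508 to 683 before log2) was subtracted. A probe was tested if some group had it well above background on all of its arrays, which left 29334 probes, none of them saturated. A gene is represented by its probe with the highest mean signal. The number of arrays limits the precision.

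limma 3.58.1 in R 4.3.3 was fitted to all 15 arrays at once with no covariate, after the thresholds named in the study's methods (q-value of 0.05, fold-change of 1.5). It was also run on simulated data with independent noise for each probe and array. Such data hold no shift shared by many genes on 1 array, so error rates under such shifts were not tested. A probe not above background on any array of a group has a fold-change given as a bound. It compares the mean of the brighter group with the mean, over the dim group's arrays, of the higher of the dimmest detected signal and the probe's own. Alternatives were the slide as a block, the slide with the run of label numbers (1 to 5, 6 to 10, 11 to 15), normexp background correction (offset 50, on the median signal of a spot, since the mean signal is not used here), quantile normalization, the 50th percentile, no filter on dim probes, averaged probes, the arrays of 2 groups only, no fold threshold, and leaving out each array. Every listed gene is accounted for, and values on every array are given for the genes called against control. The members, their roles, the signalling list and the markers were chosen with earlier results of these data known, and some genes of the signalling and control lists are not reported here. The κB motif and a GAS core, TTCNNNGAA, were added to the planned search for the ISRE. The GAS core lay in 5 of the 25 members with a promoter entry (20%), against 8.13% of all genes. It lay in 3 of the 18 called higher with TNFα, 2 of the 7 not called and 3 of the 14 called lower with TGFß1.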

Additional observations from a re-analysis of the deposited data

How the results depend on the processing

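No antiviral gene called against control changed direction under any alternative. Among those not called, the sign of the difference turned under some alternative for 1 of 10 with TNFα (*Stat2*), 5 of 14 with TGFß1 (*Dtx3l*, *Irf1*, *Parp9*, *Rsad2* and *Zbp1*), 22 of 32 with IL-1β and 16 of 32 with IL-6. Of the 22 antiviral genes that rose with TNFα, 10 rose under every alternative, and of the 18 that fell with TGFß1, 6 fell under every one. In a fit of the arrays of the compared groups only, 12 genes rose with TNFα and 10 fell with TGFß1. When each array was left out in turn, 17 to 27 genes rose with TNFα (17 without TNFα 9) and 8 to 22 fell with TGFß1 (8 without control 11, 10 without TGFß1 12). TNFα stood above IL-1β in 7 to 15 genes and above IL-6 in 7 to 15 when an array of those groups was left out, against 18 and 16 with all arrays, and above TGFß1 in 31 to 32. Without the filter on dim probes the count against IL-1β was 9, and with the 50th percentile the count against IL-6 was 10. For these settings and the fits with fewer arrays, the share of all probes called is not given here. With the slide and the run of label numbers as blocks, 1 gene of the 32 (*Ifit2*) rose with IL-1β, as 0.849% of all probes did. In that fit 27 genes rose with TNFα and 20 fell with TGFß1, against 7.51% and 12.4% of all probes. With the slide alone as a block, 33 probes rose and 4 fell with IL-6 over the whole array, against 19 in either direction without it. The cause of these changes was not tested. The label numbers are not shared between groups, and no label says that a run of them marks 1 experiment, so the run was used as a block only in the fit above. Dim probes limit the falls of *Oas3* and *Cmpk2* with TGFß1, which are bounds.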
